A study of Mus musculus with 54 samples.

Results

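The 55 collagen and laminin genes of the mouse were followed through 3 stages of germ cell differentiation in culture and in 9 cell lines. They were chosen by name: every gene whose symbol is that of a collagen alpha chain (Col, a type number, a, a chain number; 44 genes) or of a laminin alpha, beta or gamma chain (Lama, Lamb or Lamc; 11 genes), out of 20036 genes measured. Mouse embryonic stem cells (ESC) were turned into epiblast-like cells (EpiLC) and then into primordial germ cell-like cells (PGCLC), which were sampled at day 2, and poly(A) RNA was sequenced from 2 libraries of each of 27 groups. All lines carry the strain label C57BL/6 X 129/SvJ. Besides wild type (WT) they are labelled Ovol1KO, Ovol2KO, Ovol3KO and TKO, for the Ovol family of zinc finger transcription factors, and Cdh1-Tg, Ovol2a/2b-Tg, Ovol2b-Tg and Ovol2a-Tg, for transgenes of Cdh1 or of Ovol2 forms. Cdh1 encodes the adhesion protein E-cadherin. The labels do not spell out TKO. They also do not name a promoter, an inducer, the number of clones or the line into which each transgene was put.

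Collagens are triple helices of 3 alpha chains. Fibrillar collagens (types I, II, III, V, XI, XXIV and XXVII) build fibres outside the cell, whereas type IV collagen forms the sheet-like network of basement membranes, and laminins, each 1 alpha, 1 beta and 1 gamma chain, form the other network of the same membrane. In the early mouse embryo the epiblast rests on a basement membrane in which laminin is an early component, and cells that leave the epiblast at the primitive streak cross that membrane. Type XVIII collagen is a heparan sulfate-bearing component of basement membranes, and types XIII, XXIII and XXV are anchored in the cell membrane.

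The measured unit is the TPM, a gene's reads per transcript length scaled so that every library sums to the same total. It can be compared between genes of a library. A level is therefore a share of the poly(A) RNA and not an amount per cell, and in these bulk samples fewer cells of a type and less RNA per cell cannot be told apart. Libraries held 2.16 to 26.73 M reads (median 8.65). A gene was called higher or lower when limma gave an adjusted p (Benjamini-Hochberg, BH, over 14416 genes) under 0.05 and an absolute difference of at least 1 on the log2(TPM + 1) scale, which understates the change of scarce genes. Of the 55 genes 40 passed the filter on low levels, 1 TPM or more in 2 or more libraries. A gene that passes only through the group in which it is high must differ somewhere, so counts over the 40 describe them and support nothing by themselves.

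The stage labels were checked against markers. Summed over 5 genes of naive ESC, levels were 759 to 1289 TPM in the 18 ESC libraries and at most 449 elsewhere. The 4 genes typical of EpiLC summed to 1123 to 2447 TPM in EpiLC and at most 386 elsewhere, and 5 genes of PGCLC to 453 to 2266 in PGCLC and at most 173 elsewhere. In WT PGCLC the last sum was mostly T and Id1 (means of 1220 and 858 TPM). Its other genes did not clearly separate PGCLC from ESC. Prdm14 had means of 42.6 TPM in WT ESC and 12.6 in WT PGCLC, Tfap2c 84.1 and 43.9, and Prdm1 26.2 and 28.1. These sums bear on 8 libraries of Ovol2a-Tg and Cdh1-Tg, whose cell type tag differs from their title: the titles were used, and the summed markers went with the titles. Targeted genes were measured over the whole gene, which does not check a partial deletion. In PGCLC, Ovol2 stood at 9.12 TPM in WT, 5.71 in the line labelled Ovol2KO, 1.18 in TKO, 1.46 in Cdh1-Tg, 3300 in Ovol2a/2b-Tg, 884 in Ovol2a-Tg and 320 in Ovol2b-Tg (means of 2 libraries). Ovol3 stood at 8.55 TPM in the line labelled Ovol3KO against 9.53, and Ovol1 at 1.15 in the line labelled Ovol1KO against 0.671, so neither knockout was visible in the gene's total at this stage. In EpiLC, Ovol3 was 5.73 TPM in the line labelled Ovol3KO against 11.7 in WT (-0.91, adjusted p = 0.000405, under the threshold of size). Ovol2 was called higher in the EpiLC of the line labelled Ovol2KO, at 34.1 against 11.1 TPM (1.55, adjusted p = 3.88e-07). Such a total does not test the label, and Ovol2KO here and below means the line so labelled. Cdh1 stood at 316 TPM in WT, 38.8 in Ovol2KO, 20.6 in TKO and 563 in Cdh1-Tg. The labels do not say that the 2 libraries of a group are separate cultures, so the spread behind each p-value is that between libraries and may be technical. The style of the sample names differs between WT with the knockout lines and Ovol2b-Tg on one side and each of Cdh1-Tg, Ovol2a-Tg and Ovol2a/2b-Tg on the other. Such a difference could mark batches, and batch and line cannot then be told apart.

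Several of these genes lie side by side. Positions are those of GENCODE vM21 on GRCm38, the assembly also called mm10. Col4a1 (chromosome 8, 11198423 to 11312826, minus strand) and Col4a2 (11312805 to 11449287, plus strand) start 21 bases apart, point away from each other and share 22 bases, so a read in that short stretch fits both unless strand was counted. Col4a6 (chromosome X, 141165403 to 141474076, minus strand) and Col4a5 (141475385 to 141689234, plus strand) are likewise head to head with 1309 bases between them, and Col4a4 and Col4a3 on chromosome 1 with 72. Sequences are shown from RefSeq (GRCm38.p6) for the second pair, whose members were both called in 3 of the knockout lines below, and for Col9a1, Col13a1 and Col23a1, which were called in the same direction in Ovol2KO and TKO PGCLC. Each is the stretch just before a RefSeq start of the gene, up to 250 bases, ending where the first exon annotated in GENCODE begins. Col9a1 has a second RefSeq start, whose stretch (24194953 to 24195186) is not shown. Which start these cells use was not tested. Letters in capitals are matches, on either strand, to the Sp1 box GGGCGG, to CCAAT (the box of that name), to the TATA box TATAAA, to the core of the Ovol site CCGTTA or to the E-box CACCTG.

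Col4a6, chrX:141474077-141474326, minus strand: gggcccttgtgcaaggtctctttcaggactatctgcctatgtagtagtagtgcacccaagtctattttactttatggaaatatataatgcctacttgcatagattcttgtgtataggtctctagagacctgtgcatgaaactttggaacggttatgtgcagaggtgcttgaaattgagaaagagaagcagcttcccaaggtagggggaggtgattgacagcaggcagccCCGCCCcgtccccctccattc
Col4a5, chrX:141475169-141475384, plus strand: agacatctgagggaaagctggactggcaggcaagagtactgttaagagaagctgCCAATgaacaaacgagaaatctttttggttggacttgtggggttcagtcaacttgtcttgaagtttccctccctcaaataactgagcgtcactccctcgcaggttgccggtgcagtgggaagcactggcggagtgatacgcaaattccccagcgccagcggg
Col9a1, chr1:24177360-24177609, plus strand: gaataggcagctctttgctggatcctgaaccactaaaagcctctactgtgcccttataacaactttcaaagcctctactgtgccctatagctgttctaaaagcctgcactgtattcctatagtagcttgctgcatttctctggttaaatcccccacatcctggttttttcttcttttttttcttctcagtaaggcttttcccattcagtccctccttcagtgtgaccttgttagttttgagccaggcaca
Col13a1, chr10:61979109-61979358, minus strand: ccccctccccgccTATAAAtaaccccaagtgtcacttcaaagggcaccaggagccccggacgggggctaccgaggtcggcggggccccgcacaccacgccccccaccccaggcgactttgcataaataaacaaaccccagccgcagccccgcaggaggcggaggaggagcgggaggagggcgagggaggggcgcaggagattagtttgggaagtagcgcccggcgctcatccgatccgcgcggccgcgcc
Col23a1, chr11:51289670-51289919, plus strand: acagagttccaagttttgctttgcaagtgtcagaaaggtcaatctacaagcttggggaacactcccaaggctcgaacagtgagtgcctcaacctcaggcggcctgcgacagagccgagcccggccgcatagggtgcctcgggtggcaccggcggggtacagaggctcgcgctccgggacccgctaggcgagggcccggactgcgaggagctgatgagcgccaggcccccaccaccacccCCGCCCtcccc

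The stretches of Col4a6 and Col23a1 each hold 1 GGGCGG match, that of Col4a5 holds 1 CCAAT match, that of Col13a1 holds 1 TATAAA match and that of Col9a1 holds none of the 5 motifs. The share of G and C was 47.6% before Col4a6, 52.3% before Col4a5, 43.6% before Col9a1, 68.8% before Col13a1 and 66% before Col23a1. The same motifs were counted in RefSeq windows of 300 bases, from 250 before to 50 after a start, of which 44 belong to 40 of the 55 genes. GGGCGG was in 59.1% of these 44 windows and in 35.7% of all 32851 windows of the genome. CCGTTA was in 1 of the 44 (2.3%), that of Col10a1, against 2.8% of all windows. CCAAT was in 31.8% against 37.4%, CACCTG in 15.9% against 20.2% and TATAAA in 11.4% against 13.6%. A match is a string of letters and not a shown binding site.

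Abundant in every group were 4 members, 1 collagen and 3 laminin chains. Col18a1, Lama5, Lamb1 and Lamc1 reached a group mean of at least 10 TPM in all 27 groups: Col18a1 ranged from 28.3 to 316 TPM over the 54 libraries, Lama5 (the alpha chain of laminins of many epithelia) from 35.3 to 110, Lamb1 (the common beta chain) from 32.3 to 236 and Lamc1 (the common gamma chain) from 50.8 to 291. With Lama1 or Lama5 these last chains can form the laminins of the early basement membrane. In all, 9 of the 55 genes stayed at 1 TPM or more in all groups and 18 reached 10 TPM in at least 1 group. The 15 genes that were not tested never exceeded 1.51 TPM in any library. They were Col4a3, Col4a4, Col6a3, Col6a4, Col6a5, Col6a6, Col8a1, Col8a2, Col10a1, Col14a1, Col15a1, Col19a1, Col20a1, Col28a1 and Lama2. Thus of type IV collagen only the chains of the Col4a1 and Col4a2 pair and of the Col4a5 and Col4a6 pair were measurable, and of the 11 laminin chains all but Lama2 were tested.

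**Figure D1:**
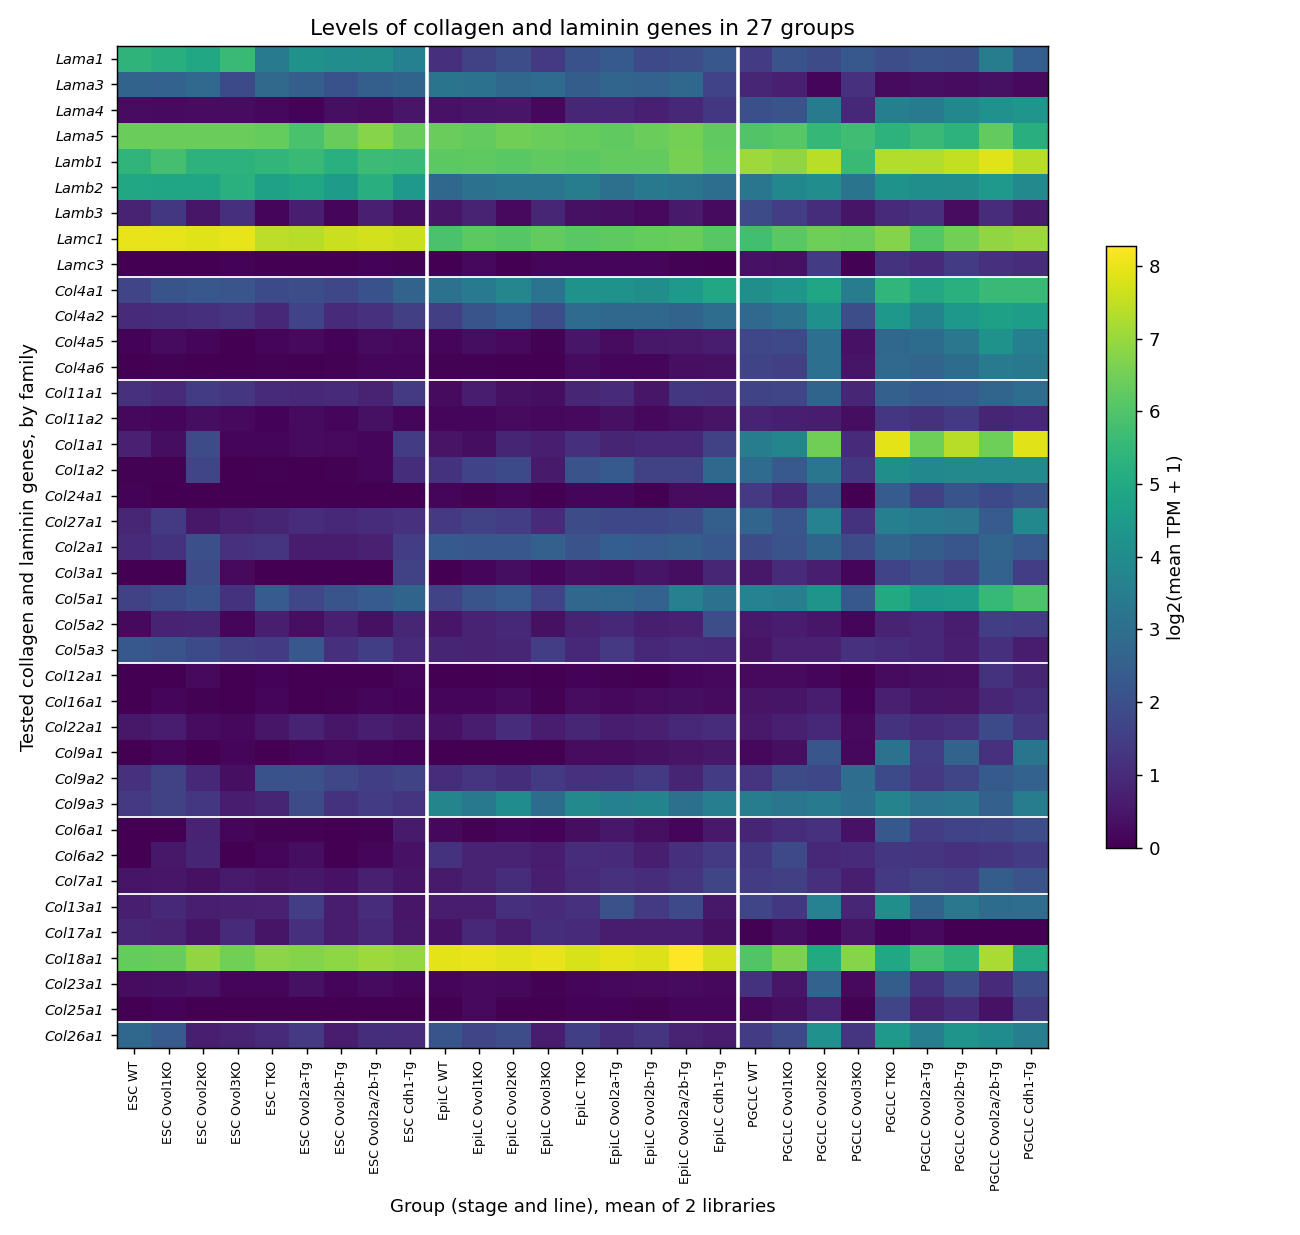
Mean levels of 39 of the 40 tested collagen and laminin genes (vertical axis, by family) in 27 groups (horizontal axis, ESC, EpiLC and PGCLC blocks of 9 lines), coloured by log2(mean TPM + 1). Col18a1, Lama5, Lamb1 and Lamc1 are bright in every column, while Col1a1, Col5a1 and the type IV collagens are brighter in the PGCLC block than in the ESC block, least so in its Ovol3KO column.

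In WT, a group of laminin chains fell between ESC and EpiLC. Lama1, the alpha chain of the first embryonic laminin, stood at 45.8 and 35.4 TPM in the ESC libraries, 1.04 and 1.41 in EpiLC and 1.9 and 1.45 in PGCLC. Both later stages lay far below both ESC libraries. The fall to EpiLC was -4.22 ± 0.17 on the log2 scale (SE, limma, BH adjusted p = 2.94e-21). Lamc1 went from 291 and 217 TPM to 57 and 59.6 (-2.09 ± 0.13, adjusted p = 1.16e-15) and was 55.9 and 50.8 in PGCLC. Lamb2 went from 34.8 and 25.2 TPM to 6.43 and 5.36 and was 9.29 and 7.83 in PGCLC. In each of these 3 chains the ESC libraries stood apart from all 4 later WT libraries. Other chains behaved differently: Lama5 was called in neither step, with 102 and 67.2 TPM in ESC, 78.2 and 86 in EpiLC and 62.2 and 66 in PGCLC. Lamb1 was 43.7 and 39.8 TPM in ESC, 72.8 and 72.2 in EpiLC and 143 and 120 in PGCLC, a stepwise order without overlap whose steps stayed under the threshold of size. Lama3, an alpha chain of epithelial laminins, was 5.71 and 4.7 TPM in ESC, 7.89 and 8.15 in EpiLC and 1.02 and 0.699 in PGCLC, a fall of -2.28 ± 0.17 in the second step. Summed over the 11 chains, laminin message was 562 and 425 TPM in ESC, 227 and 236 in EpiLC and 288 and 258 in PGCLC.

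**Figure D2:**
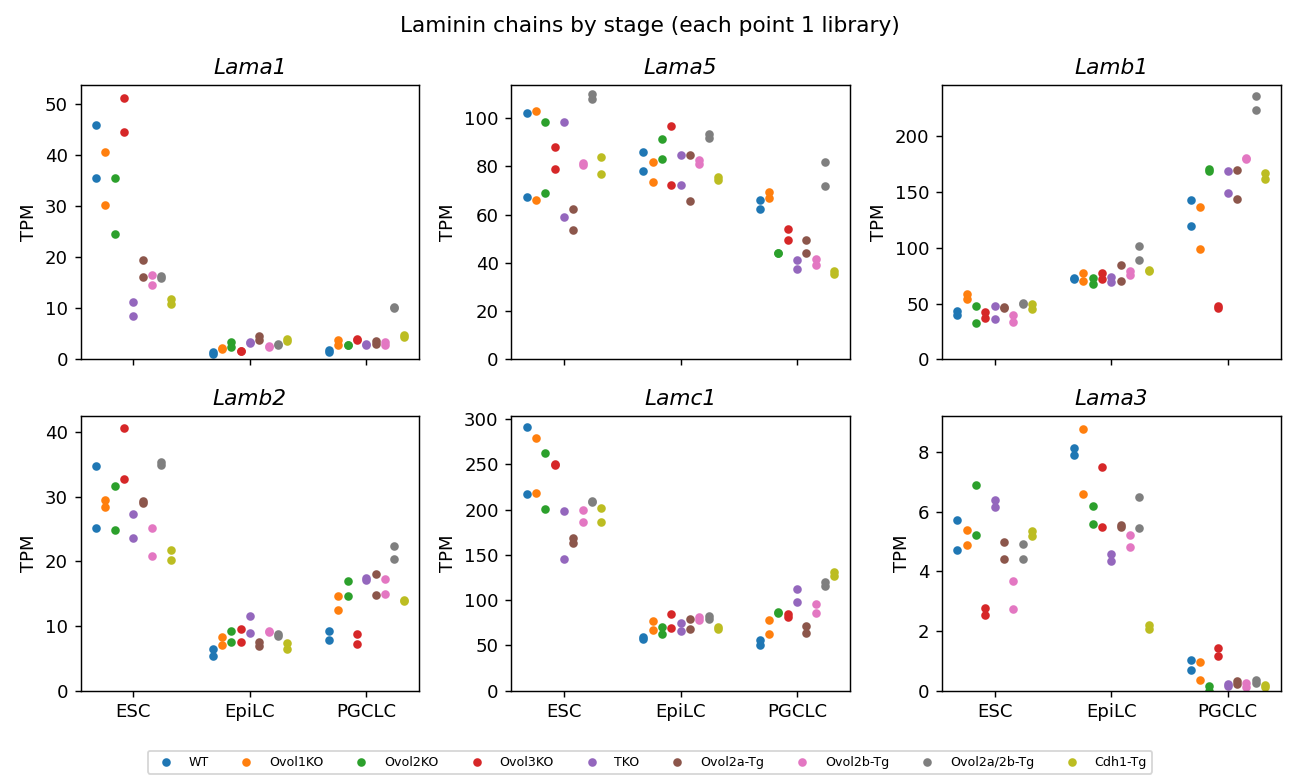
TPM (linear vertical axes) of 6 laminin chains in each of the 54 libraries, by stage (horizontal axis), with 9 lines in colour. Lama1 is highest in ESC, and there the WT, Ovol1KO and Ovol3KO points lie above those of TKO and the transgenic lines.

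Collagens took 2 other courses in WT. Col18a1 peaked in EpiLC, with 84.2 and 71.6 TPM in ESC, 239 and 245 in EpiLC and 56.2 and 71 in PGCLC, a rise of 1.63 ± 0.12 (adjusted p = 9.33e-14) followed by a fall of -1.92 ± 0.12 (adjusted p = 1.19e-15). The type I chains and the 4 tested type IV chains were highest in PGCLC. The fibrillar chain Col5a3 ran the opposite way, at 4.35 and 3.42 TPM in ESC, 0.287 and 1.34 in EpiLC and 0.415 and 0.31 in PGCLC, called lower in the first step (-1.49 ± 0.23, adjusted p = 8.92e-07). Col1a1, the main chain of type I collagen (chromosome 11, 94936224 to 94953042), was 0.463 and 0.887 TPM in ESC, 0.496 and 0.23 in EpiLC and 12 and 8.3 in PGCLC (3.02 ± 0.28 against EpiLC, adjusted p = 1.64e-11). Col1a2, the other type I chain, was 0.0705 and 0 in ESC (0 reads, where 3 reads would give 0.405 TPM), 1.47 and 1.22 in EpiLC and 7.7 and 5.2 in PGCLC. In both type I genes every PGCLC library lay above every earlier WT library. Col4a1 was 2.79 and 1.89 TPM in ESC, 6.52 and 8.3 in EpiLC and 16.5 and 15.6 in PGCLC, called in both steps (1.34 ± 0.16 and 1.03 ± 0.16). Its second step fell under the threshold of size under quantile scaling (0.77), by the test on reads (0.95) and without the first EpiLC (0.87) or the first PGCLC library (0.99) of WT. Col4a5 went from 0.0898 and 0.111 TPM in EpiLC to 2.79 and 2.04 (1.62 ± 0.18, adjusted p = 1.52e-09), and Col4a6 from 0 and 0.0542 to 2.03 and 2.41 (1.65 ± 0.18, adjusted p = 1.56e-09). Col9a3, a chain of fibril-associated type IX, rose in the first step, from 2.17 and 0.976 TPM to 14.5 and 10.4 (2.41 ± 0.22, adjusted p = 1.35e-11), and stayed at 10.1 and 10.3.

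Between WT EpiLC and ESC 6 of the 40 tested genes were higher and 5 lower, where 20.6% of all tested genes were called. Between WT PGCLC and EpiLC 15 were higher and 2 lower, where 21.1% of all were called and 13.5% were higher. In the second step the higher genes were 6 of 11 fibrillar genes (Col1a1, Col1a2, Col5a1, Col11a1, Col24a1 and Col27a1), the 4 tested type IV genes, 3 laminin chains (Lama4 and Lamb3 among them) and Col13a1 and Col23a1. Calls of Col13a1 and Col23a1 ended under quantile scaling (0.88 and 0.94) and without the second PGCLC library of WT (0.91 and 0.88), and that of Col13a1 also without the first EpiLC library (0.76). The median difference of the 40 was 0.50, against 0.15 over all tested genes. All genes together were thus shifted upward in this step, and the values given are not corrected for that shift.

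As ESC, the lines differed from WT in Lama1 and Col26a1 among others. Lama1 was 45.8 and 35.4 TPM in WT, 40.6 and 30.2 in Ovol1KO, 44.4 and 51.2 in Ovol3KO, 24.6 and 35.5 in Ovol2KO, 11.3 and 8.52 in TKO, 11.8 and 10.8 in Cdh1-Tg, 16.3 and 15.9 in Ovol2a/2b-Tg, 14.6 and 16.6 in Ovol2b-Tg and 16.1 and 19.4 in Ovol2a-Tg. TKO and the 4 transgenic lines lay below all other libraries and were called, with -1.93 ± 0.19 in TKO (limma, BH adjusted p = 1.02e-05), whereas Ovol2KO overlapped WT. The Ovol2a-Tg call (-1.14) ended without the first WT library (-0.96). Col26a1, which encodes an EMI domain collagen, was 6.43 and 5.39 TPM in WT and 4.83 and 3.58 in Ovol1KO. It lay between 0.515 and 1.71 TPM in the libraries of the 7 other lines, all 7 of which were called lower, by -1.41 (Ovol2a-Tg) to -2.14 (Ovol2b-Tg). These comparisons share the 2 WT libraries, so their like direction counts WT more than once.

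Genes of type I and III collagen were called higher in 2 ESC lines. Col3a1, which forms fibres with type I, had 2.86 and 2.7 TPM in Ovol2KO and 0.886 and 3.16 in Cdh1-Tg. It had no read in WT (3 reads would give 0.195 and 0.374 TPM), Ovol1KO, TKO or the 3 Ovol2 transgenic lines, and 0 and 0.293 TPM in Ovol3KO. The fitted difference, 1.92 ± 0.26 in Ovol2KO (adjusted p = 0.000173) and 1.49 in Cdh1-Tg, depends on the added 1 and is no bound, and the Cdh1-Tg call ended without that line's second library (0.92). Col1a2 was 0.0705 and 0 TPM in WT, 2.17 and 2.41 in Ovol2KO and 0.79 and 1.47 in Cdh1-Tg, and Col1a1 was 0.463 and 0.887, 2.55 and 3.06 and 1.27 and 2.13. The Cdh1-Tg call of Col1a2 (1.02) also ended without that line's second library (0.79) or the second WT library (0.97). Col1a1 was called in Ovol2KO, though not with a pseudocount of 0.1 (adjusted p = 0.113), and was not called in Cdh1-Tg. Col6a3, the type VI chain that was not tested, reached its highest level, 0.849 and 1.51 TPM, in Ovol2KO ESC. Markers of fibroblasts, the usual feeder cells, were followed as a sum and singly. Summed over 10 markers they were 3.9 and 2.45 TPM in WT, 4.55 and 3.76 in Ovol2KO and 6.2 and 6.24 in Cdh1-Tg. The range in all 18 ESC libraries was 2.13 to 7.64. In WT most of the sum was Thy1 and Fbln5 (means of 2.16 and 0.787 TPM), so it could miss a small share of fibroblasts. The sum did not follow Col3a1. It was 6.81 and 7.64 in Ovol1KO and 6.22 and 6.65 in Ovol2a-Tg, lines without a Col3a1 read. Of the 10, 7 were at 0 in both WT libraries, 3 in Ovol2KO, 1 in Cdh1-Tg and 6 or 7 in each other line. Dcn, the proteoglycan decorin, was 0 in both WT libraries, 0.936 and 0.627 TPM in Ovol2KO and 0.487 and 0.195 in Cdh1-Tg. In WT EpiLC, however, Dcn had a mean of 10.5 TPM and Thy1 of 25.3, so a trace of Dcn does not by itself mark fibroblasts. The part of such cells in the result was not tested.

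As counts, 6 of the 40 genes were called in Ovol2KO ESC (4 higher, 2 lower, against 3.36% of all tested genes), 7 in Cdh1-Tg (3 and 4, against 6.4%) and 4, all lower, in Ovol2b-Tg (against 5.56%). In each of TKO (4.08% of all), Ovol2a/2b-Tg (4.31%) and Ovol2a-Tg (4.95%) 3 were called, all lower, and 1 in Ovol3KO (1.85%). None was called in Ovol1KO, where 0.541% of all genes were called. There 6 of the 40 had an unadjusted p under 0.05, and the test on reads also called 0. With quantile scaling the TKO calls became 1 higher and 3 lower.

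As EpiLC, 5 of the 8 lines were called higher for the main type IV pair. Col4a1 was 6.52 and 8.3 TPM in WT, 8.93 and 10.2 in Ovol1KO, 8.04 and 7.63 in Ovol3KO, 13.7 and 12.8 in Ovol2KO, 15.9 and 19.6 in TKO, 27.5 and 30.7 in Cdh1-Tg, 22.4 and 20.4 in Ovol2a/2b-Tg, 16.2 and 15.5 in Ovol2b-Tg and 16.1 and 18.8 in Ovol2a-Tg. The 5 last lines were called, from 1.01 (Ovol2b-Tg) to 1.84 ± 0.13 (Cdh1-Tg, limma, BH adjusted p = 5.38e-08). Col4a2 was 1.63 and 2.23 TPM in WT, 3.3 and 3.66 in Ovol1KO, 3.55 and 2.45 in Ovol3KO, 4.12 and 4.98 in Ovol2KO, 6 and 6.81 in TKO, 6.45 and 7.04 in Cdh1-Tg, 4.6 and 5.7 in Ovol2a/2b-Tg, 5.47 and 5.97 in Ovol2b-Tg and 5.6 and 6.09 in Ovol2a-Tg. The same 5 lines were called for it, from 1.07 (Ovol2a/2b-Tg) to 1.41 (Cdh1-Tg). Without the Ovol2b-Tg library numbered 3 Col4a1 in that line was at 0.98. Without the first WT library Col4a1 fell under the threshold of size in Ovol2a-Tg (0.98) and Ovol2b-Tg (0.86) and Col4a2 in Ovol2a/2b-Tg (0.92). Without the second Ovol2a/2b-Tg library the last was 0.94, and Col4a1 in Ovol2b-Tg was also under it with quantile scaling (0.89) and by the test on reads (0.97). Ovol1KO and Ovol2KO lay above both WT libraries for both genes, and Ovol3KO for Col4a2, without a call. Col5a1, a fibrillar chain that nucleates fibres, was also higher in Ovol2a/2b-Tg (1.93), Cdh1-Tg (1.40), Ovol2a-Tg (1.12) and TKO (1.04). Both of the last were under 1 with quantile scaling (0.96 and 0.88), and TKO also without the first WT (0.98) or second TKO library (0.92). Lama3 was lower in Cdh1-Tg, at 2.2 and 2.07 TPM against 7.89 and 8.15 (-1.52). In all 3 of 40 genes were called in TKO (against 2.3% of all), 11 in Cdh1-Tg (6.38%), 6 in Ovol2a/2b-Tg (4.5%), 2 in Ovol2b-Tg (1.67%), 7 in Ovol2a-Tg (2.06%) and 2 in Ovol3KO (2.85%). None was called in Ovol2KO (1.42% of all; 10 of 40 at an unadjusted p under 0.05 and 5 by the test on reads) or Ovol1KO (0.486%; 10 of 40, and 0 by the test on reads). Some counts rested on 1 library. Without the second WT library TKO had 5 calls and Ovol3KO 5, without the first WT library Ovol2a/2b-Tg had 3, without the first Ovol3KO library Ovol3KO had 1, and without the Ovol2b-Tg library numbered 3 that line had 1. Quantile scaling gave 1 higher and 1 lower in Ovol2b-Tg, 6 higher and 3 lower in Cdh1-Tg and 1 lower in Ovol3KO.

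The widest differences between lines were in day 2 PGCLC. Against WT, 10 of the 40 genes were higher and 1 lower in the line labelled Ovol2KO, where 8.18% of all tested genes were called and 4.11% were higher, and 16 were higher and 2 lower in TKO, where 10.5% of all were called and 5.58% were higher. In Ovol3KO the direction turned, with 1 higher and 11 lower, where 12.8% of all were called and 8.5% were lower. These counts moved with the processing: a pseudocount of 0.1 called 17 in Ovol2KO (15 higher) and 22 in Ovol3KO (18 lower), and the test on reads 18 (14 higher) and 20 (16 lower). None was called in Ovol1KO (0.666% of all; 10 of 40 at an unadjusted p under 0.05, and 0 by the test on reads). The median difference over the 40 was 0.84 in TKO (0.03 over all tested genes), 0.49 in Ovol2KO (0.04), -0.40 in Ovol3KO (-0.12, a downward shift of all genes there) and 0.11 in Ovol1KO (0.00). Summed over the 44 collagens, levels were 153 and 160 TPM in WT, 277 and 306 in Ovol2KO, 505 and 506 in TKO and 152 and 159 in Ovol3KO. The Ovol3KO sum overlapped that of WT although 8 collagens were called lower and 1 higher, and Col18a1 alone gave 106 and 111 TPM of it. Without the second WT library TKO lost the calls of Col1a2, Col3a1, Col4a5, Col18a1 and Col24a1, all under the threshold of size (0.88 for Col4a5).

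**Figure D3:**
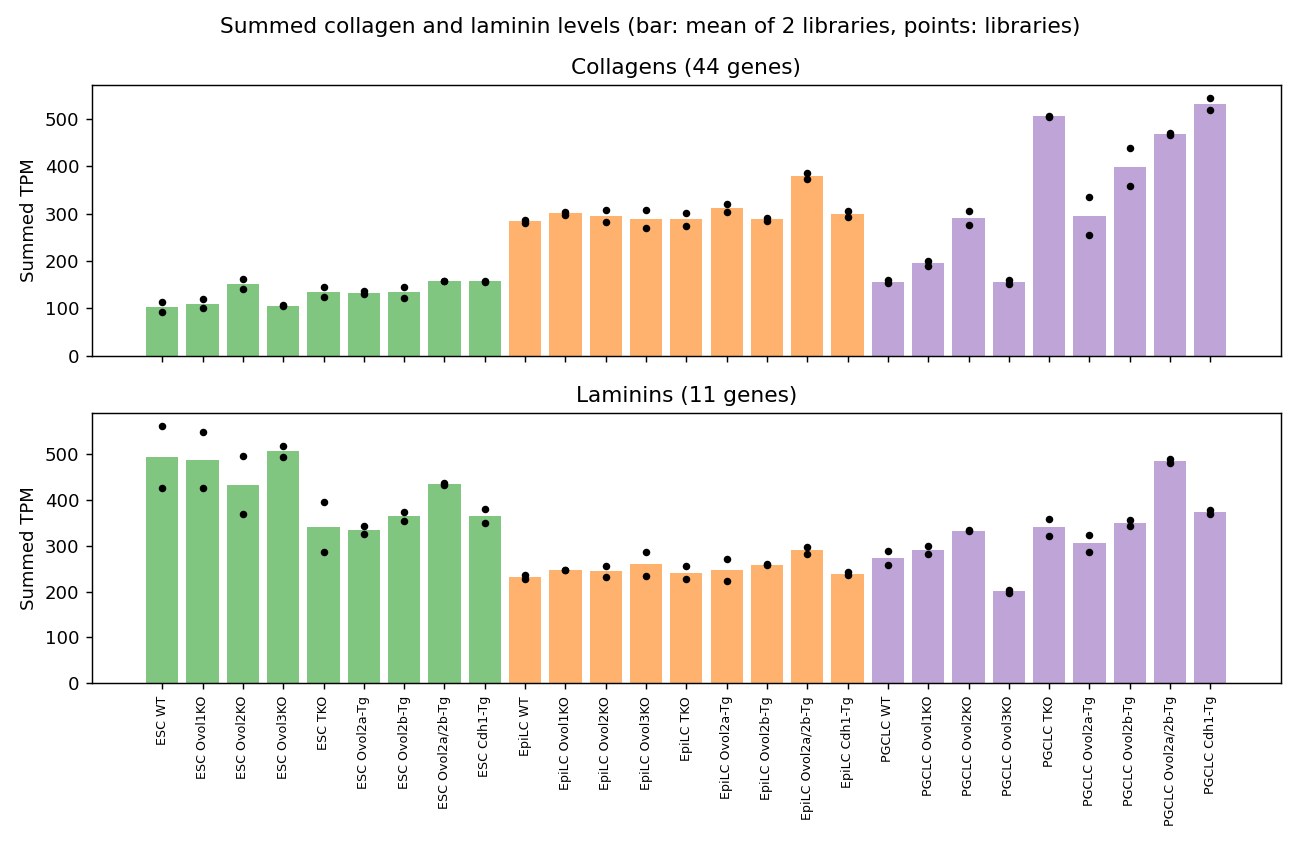
Summed TPM of 44 collagens (upper panel) and 11 laminins (lower panel) in 27 groups. Bars are means of 2 libraries, points the libraries. Collagen sums reach 505 and 506 TPM in TKO PGCLC against 153 and 160 in WT PGCLC, and the WT laminin sum is highest in ESC.

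Col1a1 had the largest difference from WT among the 40 genes in each of Ovol2KO, TKO and Ovol3KO. It was 12 and 8.3 TPM in WT PGCLC, 9.19 and 16.8 in Ovol1KO, 84.5 and 92.9 in Ovol2KO, 236 and 254 in TKO and 1.31 and 0.692 in Ovol3KO. The WT and Ovol1KO libraries overlapped and every other line stood apart from them. The difference from WT was 3.03 ± 0.33 in Ovol2KO (limma, BH adjusted p = 1.98e-05), 4.48 ± 0.33 in TKO (adjusted p = 4.32e-07) and -2.48 ± 0.33 in Ovol3KO (adjusted p = 4.47e-05). The last rests on 51 and 4 reads in the Ovol3KO libraries, and the test on reads gave -2.95 with an adjusted p of 0.222, which is not a call. TKO exceeded Ovol2KO by 1.46 ± 0.33 (adjusted p = 0.0215), a call that ended when any 1 of those 4 libraries was left out (adjusted p = 0.0866 to 0.102). Col1a2 was 7.7 and 5.2 TPM in WT, 3.21 and 4.65 in Ovol1KO, 8.57 and 8.46 in Ovol2KO, 17 and 15.7 in TKO and 1.64 and 1.42 in Ovol3KO. It was called in TKO (1.24 ± 0.17, adjusted p = 5.04e-05) and Ovol3KO (-1.54 ± 0.17, adjusted p = 4.16e-06) and not in Ovol2KO. Type I collagen is normally a trimer with more of the Col1a1 chain. The message level of Col1a1 exceeded that of Col1a2 in every library of WT, Ovol1KO, Ovol2KO and TKO. It lay below that of Col1a2 in both Ovol3KO libraries, where Col1a1 rests on 51 and 4 reads.

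The other called fibrillar chains had smaller differences than Col1a1. Col5a1 was 12.5 and 10.6 TPM in WT, 16.3 and 20.3 in Ovol2KO, 34 and 29.9 in TKO (1.39 ± 0.19, adjusted p = 3.39e-05) and 3.32 and 4.45 in Ovol3KO (-1.37 ± 0.19, adjusted p = 2.58e-05). Col3a1 was 0.606 and 0.283 TPM in WT, 2.23 and 2.1 in TKO (1.14) and 0.195 and 0 in Ovol3KO. Col24a1 and Col27a1 are fibrillar chains with short or interrupted helices. Col24a1 was 1.77 and 1.41 TPM in WT, 4.12 and 4.38 in TKO (1.02, and 0.98 under quantile scaling) and 0.0169 and 0 in Ovol3KO, from 1 and 0 reads (-1.36). Col27a1 was 6.18 and 4.66 TPM in WT and 1.53 and 1.07 in Ovol3KO (-1.48 ± 0.22, adjusted p = 5.83e-05), and it was not called in TKO at 12.3 and 9.29. Of the 11 fibrillar genes 5 were higher in TKO (5.58% of all tested genes were), 1 in Ovol2KO (4.11%) and 5 lower in Ovol3KO (8.5%).

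**Figure D4:**
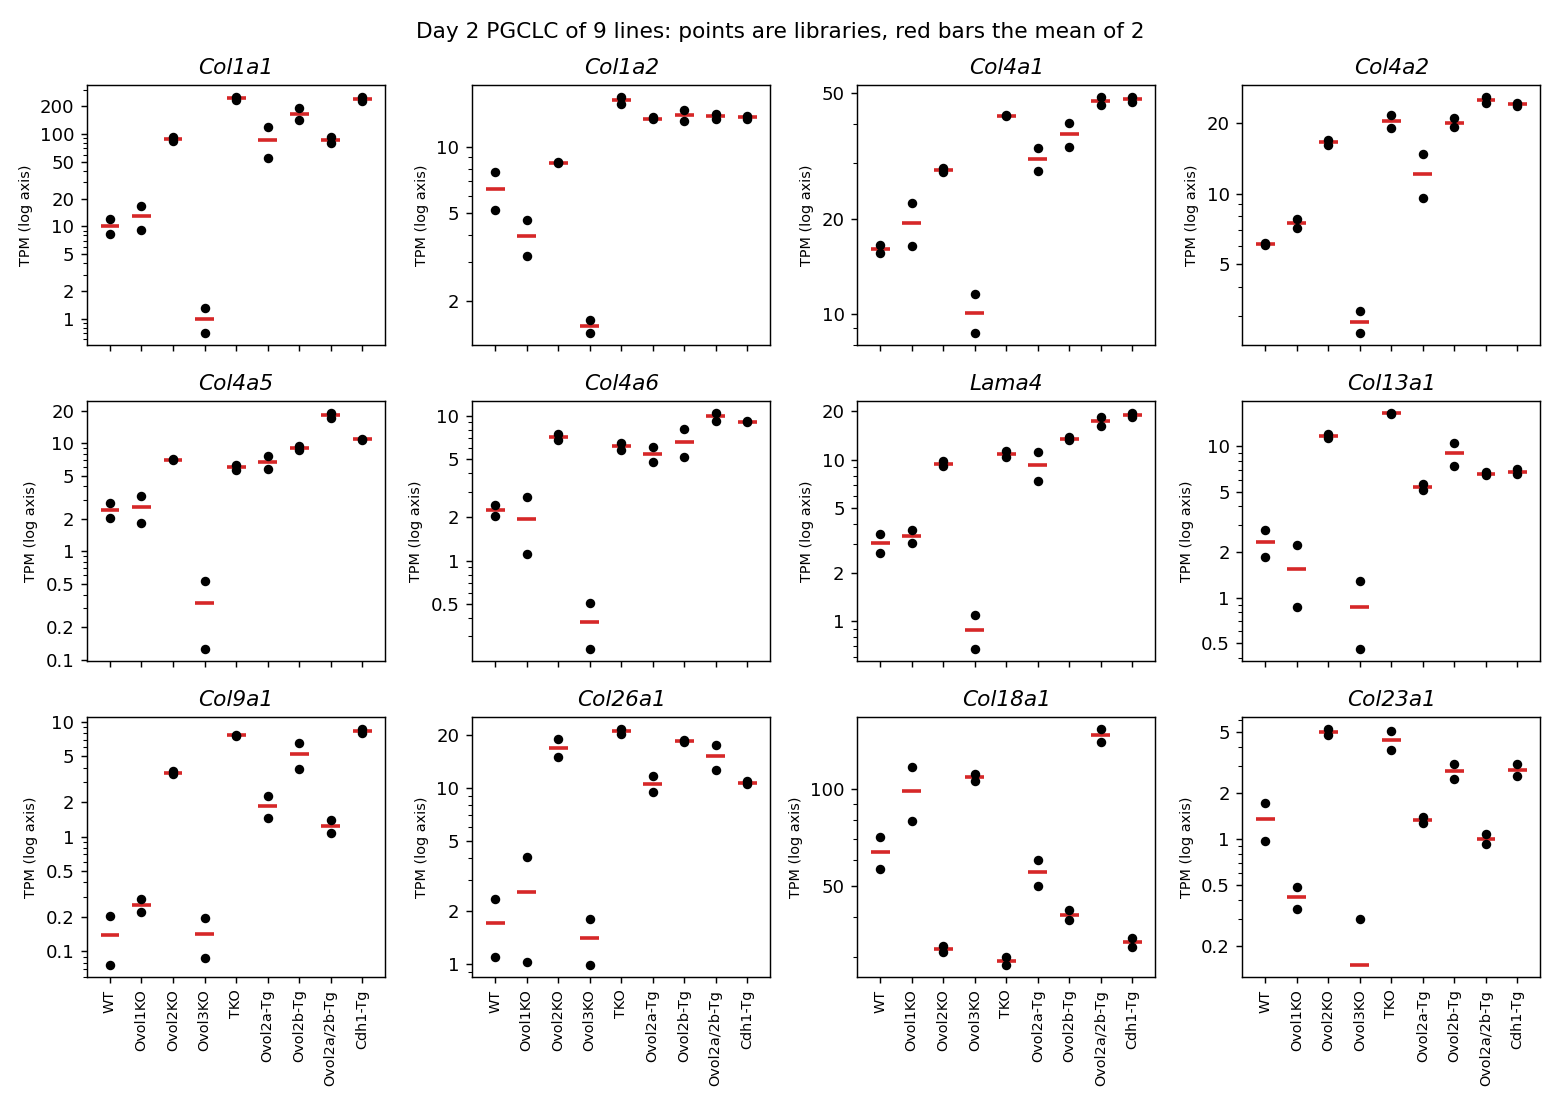
TPM (log vertical axes) of 12 genes in day 2 PGCLC of 9 lines. Points are libraries and red bars means of 2, and the Ovol3KO library at 0 TPM for Col23a1 cannot be drawn. Ovol3KO has the lowest mean for Col1a1, Col1a2, the 4 type IV genes, Lama4 and Col13a1, and Col18a1 runs the other way, low in Ovol2KO and TKO.

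Of the 4 tested type IV genes 3 were called higher in Ovol2KO (4.11% of all tested genes were) and 4 in TKO (5.58%), and 2 lower in Ovol3KO (8.5%). Col4a1 was 16.5 and 15.6 TPM in WT, 16.4 and 22.4 in Ovol1KO, 28.1 and 28.9 in Ovol2KO, 42.5 and 42.4 in TKO and 8.68 and 11.6 in Ovol3KO. Its difference passed the threshold in TKO (1.35 ± 0.15, adjusted p = 4.33e-06) and not in Ovol2KO or Ovol3KO. Col4a2 was 6.03 and 6.17 TPM in WT, 7.15 and 7.81 in Ovol1KO, 17 and 16.2 in Ovol2KO, 19.2 and 21.8 in TKO and 3.15 and 2.53 in Ovol3KO. It was called in Ovol2KO (1.31 ± 0.16, adjusted p = 2.51e-05) and TKO (1.59 ± 0.16, adjusted p = 2.29e-06). These chains make the trimer of most basement membranes, and Col4a1 stood above Col4a2 in every WT, Ovol2KO, TKO and Ovol3KO library. Col4a5 was 2.79 and 2.04 TPM in WT, 1.84 and 3.26 in Ovol1KO, 7.09 and 6.96 in Ovol2KO, 6.32 and 5.61 in TKO and 0.538 and 0.125 in Ovol3KO. Col4a6 was 2.03 and 2.41, 1.11 and 2.77, 6.76 and 7.44, 6.52 and 5.78, and 0.507 and 0.245 in the same order. Both X-linked genes, whose upstream sequences are given above, were higher in Ovol2KO (1.24 for Col4a5 and 1.33 for Col4a6) and TKO (1.04 and 1.15) and lower in Ovol3KO (-1.37 and -1.23). The Col4a5 call in TKO ended under quantile scaling (0.99) and without the first TKO (0.96) or second WT library (0.88).

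The membrane-anchored Col13a1 and Col23a1 and the fibril-associated Col9a1 were called higher in both Ovol2KO and TKO. Col13a1 was 1.86 and 2.78 TPM in WT, 0.871 and 2.23 in Ovol1KO, 11.3 and 12.1 in Ovol2KO and 16.6 and 16.2 in TKO, with differences of 1.95 ± 0.26 (adjusted p = 5.3e-05) and 2.41 ± 0.26 (adjusted p = 4.5e-06). Col23a1 was 0.967 and 1.72 TPM in WT, 4.78 and 5.27 in Ovol2KO (1.38), 5.06 and 3.84 in TKO (1.23) and 0.298 and 0 in Ovol3KO (-1.02). The TKO call ended without the first WT library (0.99), and the Ovol3KO call without the second WT (-0.79) or second Ovol3KO library (-0.83). Col9a1 was nearly silent in WT, at 0.203 and 0.0759 TPM from 2 and 1 reads, and was 3.72 and 3.5 in Ovol2KO (2.02 ± 0.22, adjusted p = 9.7e-06) and 7.66 and 7.59 in TKO (2.92 ± 0.22, adjusted p = 1.63e-07). Its partners in type IX did not follow: Col9a3 was called in none of the 4 knockout lines, and Col9a2 was higher in Ovol3KO, at 6.71 and 6.81 TPM against 1.38 and 1.37 (1.71 ± 0.28, adjusted p = 0.000159). Col26a1, lower in these lines as ESC, was higher as PGCLC, at 15.1 and 18.9 TPM in Ovol2KO and 21.8 and 20.3 in TKO against 1.09 and 2.33 in WT (2.76 ± 0.33 and 3.06 ± 0.33, adjusted p = 1.98e-05 and 4.53e-06). Col25a1 (1.56) and Col6a1 (1.43) were called in TKO as well. Col18a1 went the other way, at 56.2 and 71 TPM in WT, 31.2 and 32.4 in Ovol2KO, 30.1 and 28.3 in TKO and 106 and 111 in Ovol3KO. TKO was called lower (-1.09 ± 0.15, adjusted p = 3.86e-05), though at -0.92 without the second WT library it would not have been.

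Single laminin chains were called in these lines as PGCLC. Lama4, an alpha chain known from vessels and mesenchyme, was 3.48 and 2.65 TPM in WT, 3.04 and 3.7 in Ovol1KO, 9.11 and 9.87 in Ovol2KO, 10.4 and 11.3 in TKO and 1.1 and 0.672 in Ovol3KO. The differences were 1.37 ± 0.19 (adjusted p = 6.28e-05), 1.55 ± 0.19 (adjusted p = 1.28e-05) and -1.11 ± 0.19 (adjusted p = 0.000184), the last under the threshold of size with quantile scaling (-0.98) and without the first WT (-0.96) or second Ovol3KO library (-0.95). Lamb1 was 143 and 120 TPM in WT, 171 and 169 in Ovol2KO, 169 and 149 in TKO and 47.4 and 46.2 in Ovol3KO, called only in the last of these (-1.46 ± 0.12, adjusted p = 2.46e-07). Lamb3, an epithelial beta chain, was 3.54 and 1.96 TPM in WT and 0.549 and 0.195 in Ovol3KO (-1.43). Lamc3, a gamma chain of few tissues, was 0.355 and 0.265 TPM in WT and 1.86 and 1.73 in Ovol2KO (1.09). Lamc1 was 55.9 and 50.8 TPM in WT, 85.5 and 86.5 in Ovol2KO, 112 and 98.4 in TKO and 81.6 and 84.3 in Ovol3KO. Lama5 was 62.2 and 66 TPM in WT, 44.2 and 44.2 in Ovol2KO, 41.3 and 37.3 in TKO and 54.2 and 49.4 in Ovol3KO. Neither Lamc1 nor Lama5 reached the threshold of size in a knockout line.

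**Figure D5:**
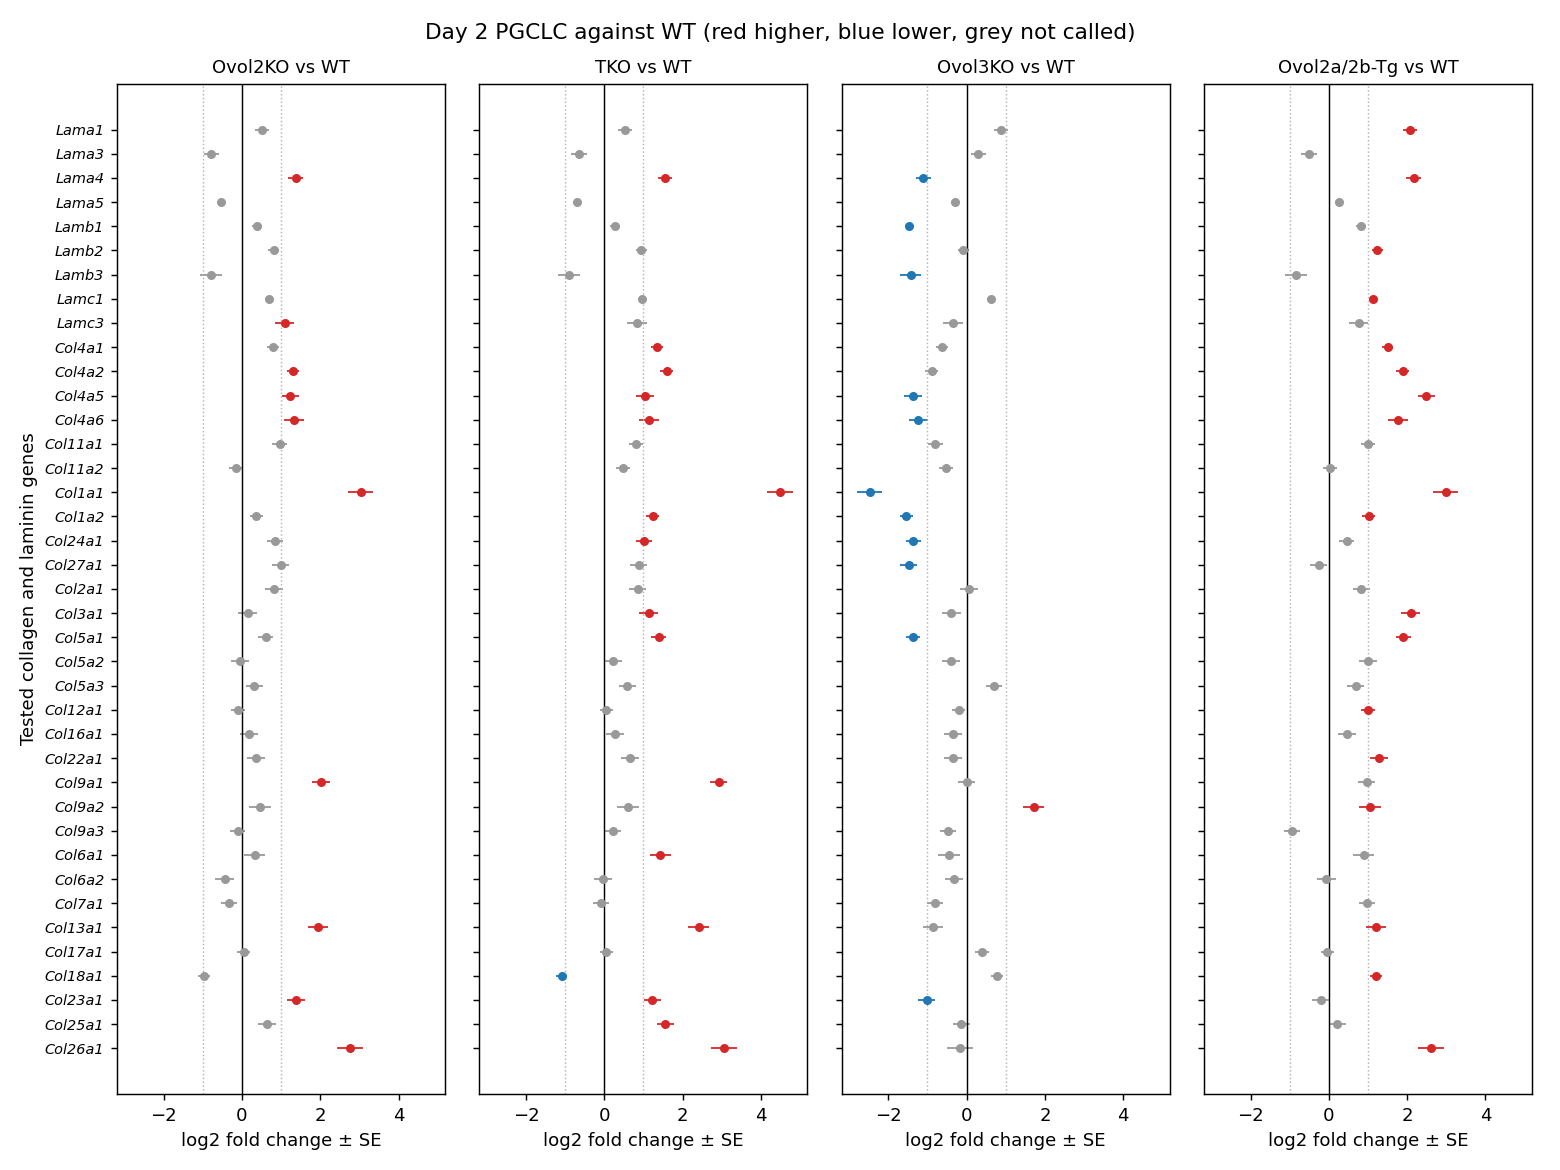
Log2 fold change against WT ± SE (horizontal axes) of 39 of the 40 tested genes in day 2 PGCLC of 4 lines, 2 libraries against 2. Red points were called higher, blue lower and grey neither, and the dotted lines mark the threshold of 1. TKO has 16 red and 1 blue point among those drawn, Ovol3KO 1 red and 11 blue.

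In the transgenic lines as PGCLC, type I and type IV collagen levels stayed above those of WT. Col1a1 was 230 and 250 TPM in Cdh1-Tg, 93.2 and 79.1 in Ovol2a/2b-Tg, 194 and 141 in Ovol2b-Tg and 54.8 and 118 in Ovol2a-Tg, all above the WT libraries at 12 and 8.3. Col4a1 was 48.7 and 47, 48.7 and 46, 40.3 and 33.7, and 28.3 and 33.4 TPM in the same order. Col4a5 was 10.8 and 10.7, 17 and 19.1, 8.6 and 9.38, and 5.75 and 7.57 TPM. All of these lay above both WT libraries. Against WT, 17 genes were higher and 1 lower in Cdh1-Tg (9.86% of all tested genes called), 18 and 0 in Ovol2a/2b-Tg (7.62%, with 4.68% higher), 12 and 1 in Ovol2b-Tg (8.3%) and 6 and 1 in Ovol2a-Tg (3.43%). The median differences were 0.83, 0.98, 0.67 and 0.53, against 0.06, 0.03, 0.03 and 0.02 over all tested genes. Without the first Ovol2a-Tg library that line had 11 calls. These comparisons share the WT libraries with each other and with the knockout comparisons.

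In Ovol2a/2b-Tg, the line with most Ovol2 message, several basement membrane genes were higher than in WT, as Lamc1 and Lama1 also were in Cdh1-Tg. Lama1 was 10.3 and 10 TPM in Ovol2a/2b-Tg, against 1.9 and 1.45 in WT and 3.01 and 2.71 in TKO (2.06 ± 0.18 from WT, adjusted p = 8.37e-07). Col18a1 was 140 and 154 TPM, above the 56.2 and 71 of WT (1.20 ± 0.15, adjusted p = 1.9e-05) and above every other PGCLC library. Lamc1 was 116 and 120 TPM (1.13 ± 0.10, adjusted p = 8.52e-07) and Lamb2 20.4 and 22.4 (1.23). Col3a1 reached its highest group mean of the series there, at 5.39 and 4.84 TPM (2.09 ± 0.24, adjusted p = 1.13e-05). Col9a1, in contrast, was only 1.4 and 1.07 TPM, well below the 7.66 and 7.59 of TKO. Cdh1-Tg had the highest Col5a1, 58.8 and 63.6 TPM (2.31 ± 0.19 from WT, adjusted p = 2.48e-07), and the highest Lama4, 19.6 and 18.3 (2.30 ± 0.19, adjusted p = 2.66e-07). Its Lamc1 was 131 and 127 TPM (1.26 ± 0.10, adjusted p = 2.12e-07) and its Lamb3 0.345 and 0.715 (-1.27, and -0.96 without the first WT library).

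The transgenic lines were also compared with TKO directly, a comparison added after the values were seen, and the labels do not say that they derive from it. Ovol2a/2b-Tg had 5 genes higher and 7 lower than TKO, where 8.37% of all were called. Among the higher genes were Col18a1 (2.29 ± 0.15, adjusted p = 4.84e-08), Lama1 (1.53), Col4a5 (1.45) and Col7a1 (1.06), the collagen of anchoring fibrils. The lower genes were Col9a1 (-1.95), Col1a1 (-1.50 ± 0.33, adjusted p = 0.00297), Col23a1 (-1.44), Col25a1 (-1.35), Col13a1 (-1.20), Col9a3 (-1.16) and Col27a1 (-1.14). Without the first TKO library Col7a1 (0.91), Col9a3 (-0.99) and Col27a1 (-0.96) fell under the threshold of size, as did Col7a1 (0.94) and Col27a1 without the second Ovol2a/2b-Tg library. Ovol2a-Tg had 0 genes higher and 5 lower (3.29% of all called): Col9a1 (-1.61), Col1a1 (-1.59 ± 0.33, adjusted p = 0.00608), Col13a1 (-1.45), Col23a1 (-1.22) and Col25a1, the last not called with a pseudocount of 0.1 (adjusted p = 0.116). Leaving out 1 library changed that number to between 3 and 8, and without the first Ovol2a-Tg library Col1a1 was at -1.04 (adjusted p = 0.0672) and Col25a1 at -0.86. Cdh1-Tg differed in Col13a1 alone (-1.16; 2.3% of all called), a call that ended without its second library (adjusted p = 0.0552). Ovol2b-Tg differed in none (0.354% of all called; 12 of 40 at an unadjusted p under 0.05, and 0 by the test on reads). Col6a1 and Col1a1 were the 2 genes called higher in TKO than in Ovol2KO (0.985% of all called), and neither call held when any 1 of the 4 libraries was left out.

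Whether a line's difference from WT changed between EpiLC and PGCLC was tested as a difference of differences in all 54 libraries. It was called for 10 of the 40 genes in TKO, all toward higher in PGCLC (9.41% of all tested genes called), 9 higher and 1 lower in Ovol2KO (7.71%), 2 higher and 11 lower in Ovol3KO (16.1%) and 8 higher in Ovol2a/2b-Tg (7.07%). Col4a1, which was higher in TKO and Ovol2a/2b-Tg at both stages, was called in none of these 4 tests. With a pseudocount of 0.1 the counts were 5 in TKO, 4 in Ovol2KO (2 higher and 2 lower) and 2 in Ovol2a/2b-Tg, and by the test on reads 4 in each of TKO and Ovol2a/2b-Tg. Col1a1 was called in all 4 lines, and in none of them by the test on reads (adjusted p = 0.136 to 0.585). These results are given one by one among the additional observations.

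Genes that process collagen were followed as a list of 30 (prolyl and lysyl hydroxylases, chaperones, lysyl oxidases and propeptide proteases), of which 28 were tested. In WT 8 of them were higher in PGCLC than in EpiLC and 0 lower, where 13.5% of all tested genes were higher. In PGCLC, 7 were higher in TKO, where 5.58% of all were, and 0 lower (P4ha1, P4ha2, P3h2, P3h3, Plod1, Loxl2 and Bmp1), 2 were higher in Ovol2KO (P4ha2 and Adamts2, against 4.11% of all), 2 higher and 4 lower in Ovol3KO (against 12.8% of all called), and 0 were called in Ovol1KO. P4ha2, a subunit of the enzyme that hydroxylates prolines in collagen, had a mean of 101 TPM in TKO and 58.8 in Ovol2KO against 11.6 in WT (3.04 ± 0.16, adjusted p = 6.07e-09, and 2.27). Loxl2, a lysyl oxidase that cross-links type IV collagen, was 21.2 TPM in TKO against 3.4 (2.33). In Ovol3KO the related Loxl4 was 1.24 TPM against 13.1 (-2.73), and Bmp1, the protease that removes C-terminal propeptides, was 3.86 against 14.3 (-1.65). Among the transgenic lines 6 of the 28 were higher in Cdh1-Tg (9.86% of all called in either direction), 6 in Ovol2a/2b-Tg (with 1 lower, 7.62%), 5 in Ovol2b-Tg (8.3%) and 3 in Ovol2a-Tg (3.43%).

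Partners and receptors of the basement membrane were a list of 20, of which 18 were tested. In WT 4 were higher and 4 lower in EpiLC than in ESC (20.6% of all called), and 2 were higher and 2 lower in PGCLC than in EpiLC, a share near the 21.1% of all genes. In TKO PGCLC, where 10.5% of all were called, 1 was higher, Nid1, the linker between laminin and type IV collagen, at 20.2 TPM against 6.33 (1.53). The 3 members that fell there were Itga3, an integrin chain that binds laminin, at 11 against 40.5 (-1.78), Bcam, a receptor for Lama5 laminins, at 73.3 against 159 (-1.11), and Npnt. Itga3 was the 1 member lower in Ovol2KO (8.18% of all called). In Ovol3KO Ntn4, Pxdn, Ddr1 and Tinagl1 were lower and 0 were higher (8.5% of all were lower). Pxdn, which cross-links type IV collagen, was 16.9 TPM against 45.5 (-1.38).

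Markers of other cell types also differed between lines in PGCLC, and not always with the collagen genes. Summed over 12 markers of primitive and parietal endoderm, a cell type rich in Lama1 and type IV collagen, levels were 36.5 and 25.5 TPM in WT, 17.5 and 23.3 in Ovol1KO, 58.4 and 60.4 in Ovol2KO, 81.3 and 85 in TKO, 8.4 and 7.23 in Ovol3KO, 77.4 and 76 in Cdh1-Tg, 42.2 and 38.3 in Ovol2a/2b-Tg, 86.5 and 78.2 in Ovol2b-Tg and 48.8 and 58.8 in Ovol2a-Tg. Most of it was Gata6 (13.6 and 7.78 TPM in WT, 38.3 and 40.9 in TKO, 0.377 and 0.509 in Ovol3KO), Gata4 (12 and 8.06, 18 and 21.5, 1.77 and 0.959) and Pdgfra (3.63 and 2.24 in WT, 15.2 and 10.8 in TKO), which mesoderm also expresses. Foxa2 was 0.355 and 1.46 TPM in WT and 0.327 and 0.0772 in TKO. Of the 12 markers, 5 were at 1 TPM or more in both WT libraries, 6 in TKO and 2 in Ovol3KO. The sum of the 44 collagens did not follow the endoderm sum in every line. It was 153 and 160 TPM in WT, 200 and 190 in Ovol1KO, 152 and 159 in Ovol3KO and 467 and 470 in Ovol2a/2b-Tg. Col18a1, which went the other way in Ovol2KO, TKO and Ovol3KO, had a mean of 63.6 TPM in WT. It made up most of the Ovol3KO sum, as given above. The Ovol3KO sum thus hides its called collagens, most of which were lower. The 10 markers of fibroblasts summed to 19.2 and 15.4 TPM in WT, 11.1 and 18.6 in Ovol1KO, 55.2 and 54.2 in Ovol2KO and 69.8 and 58.7 in TKO. Their sum was 7.65 and 8.51 in Ovol3KO and 63.3 and 61.6 in Cdh1-Tg. In Ovol2a/2b-Tg it was 54.4 and 60.3, in Ovol2b-Tg 66.1 and 65.4 and in Ovol2a-Tg 36.1 and 54.3. Pdgfrb alone gave 13.7 and 12.9 TPM of this in WT and 57.8 and 52.3 in TKO, where Dcn and Fap were at 0 in both libraries. The germ cell gene Tfap2c had a mean of 43.9 TPM in WT PGCLC, 17.2 in Ovol2KO, 13.1 in TKO and 102 in Ovol3KO, and the streak gene T had 1220, 482 in TKO and 107 in Ovol3KO. The part of these shifts in the collagen and laminin differences was not tested.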

How the data were processed

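Poly(A) RNA of 54 libraries was isolated with the RNeasy Micro kit and made into libraries by 12 PCR cycles of a directional NEBNext Ultra protocol, per the labels' protocols. HISAT2, featureCounts, edgeR and mm10 are named in the submitters' processing notes, while their versions, the annotation and whether strand was used were "not given in the sources used here". Each deposited value is a TPM of 1 gene, scaled by the authors to the same total in every library. Group and stage came from the titles. The 2 EpiLC columns of Ovol2b-Tg, numbered 3 and 4, fix the group and not the library. No column of single samples was left unused.

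Differences were computed on log2(TPM + 1) with limma 3.58.1 in R 4.3.3 (trend and robust options) for genes at 1 TPM or more in at least 2 libraries (14416). Lines were compared with WT in the 18 libraries of a stage (9 residual degrees of freedom), and stages and differences of differences in all 54 (27). A call needed a BH adjusted p under 0.05 and an absolute log2 difference of at least 1. On simulated TPM with 200 changed genes, the script recovered 198 and called 0 in an unchanged line. The changed genes there were well covered by reads, and the same spread was set for all genes and libraries. Recovery of scarce genes was therefore not checked. Permutation tests of 2 against 2 libraries cannot pass the threshold and were not used.

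Whole reads behind the TPM were recovered for all 17973 genes above 0 (100% of values whole within 0.01 of a read), and limma-voom on these counts served as an alternative chosen after seeing the data. For a gene with few reads the recovered counts can be too low by a whole factor. Other alternatives were a pseudocount of 0.1, no filter, a filter at 5 TPM, quantile scaling, a replicate block, a fit of all libraries and leaving out each library. Intervals from reads cover counting error only.

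The members and lists were chosen with earlier results of these data known. Values are given in full for Col1a1, Col1a2, Col3a1, Col4a1, Col4a2, Col18a1, Lama1, Lama5, Lamb1 and Lamc1, for the 20 largest called differences of Ovol2KO, TKO and Ovol3KO PGCLC, and for up to 6 called genes of other comparisons. Further genes named here, such as Lamb2, Lama3, Col6a3 and Col9a3, were chosen after their values were seen. The values of 1 tested gene are not reported here, though it enters the counts, medians and sums. Figures were drawn with matplotlib 3.10.9 in Python 3.11.15.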

Additional observations from a re-analysis of the deposited data

Results flagged for a closer look

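These results stood out because the difference of a line from WT was not the same in EpiLC and PGCLC, by a test of that difference itself (limma, all 54 libraries, BH adjusted p under 0.05 and a size of at least 1 on the log2 scale). Values are the PGCLC difference minus the EpiLC difference, each from 2 libraries against 2 at each stage. The 4 lines share the WT libraries, so their values are given side by side and not as independent results. Many rest on genes scarce in EpiLC, and calls lost with a pseudocount of 0.1 or in the test on reads (limma-voom) are given beside them.

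The type I chain Col1a1 had values of 2.62 in Ovol2KO, 3.79 in TKO, 2.52 in Ovol2a/2b-Tg and -2.71 in Ovol3KO. The test on reads called none of the 4 (adjusted p = 0.585, 0.203, 0.581 and 0.136), nor did a pseudocount of 0.1 in Ovol2KO (0.0959) and Ovol2a/2b-Tg (0.114). Col26a1 was positive in all 4 lines, at 2.92, 3.67, 3.93 and 1.33. In Ovol3KO this went with a lower Col26a1 in EpiLC and no call in PGCLC, and without the first PGCLC library of WT it was 0.99.

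For basement membrane genes, the X-linked type IV pair gave 1.18 (Col4a5) and 1.37 (Col4a6) in Ovol2KO, -1.28 and -1.19 in Ovol3KO and 2.09 and 1.47 in Ovol2a/2b-Tg. The test on reads called none of these 6: adjusted p was 0.22, 0.484 and 0.337 for Col4a5 and 0.0741 for Col4a6 in Ovol2KO. On reads Col4a6 changed sign in Ovol3KO (0.07) and Ovol2a/2b-Tg (-0.07). A pseudocount of 0.1 ended the Ovol2KO and Ovol2a/2b-Tg calls (adjusted p = 0.275 and 0.193 for Col4a5, 0.0516 and 0.599 for Col4a6). Lama4 gave 1.27 in Ovol2KO, 1.07 in TKO and 1.65 in Ovol2a/2b-Tg, called in none of them by the test on reads (adjusted p = 0.136, 0.585 and 0.157) or with a pseudocount of 0.1 (0.0952, 0.471 and 0.115). Lamc3 gave 1.11 in Ovol2KO (0.111 on reads and 0.0671 with a pseudocount of 0.1). Col4a2 (-1.33), Lamb1 (-1.50) and Lamb3 (-1.82) in Ovol3KO and Lama1 (1.26) in Ovol2a/2b-Tg were called in each alternative in which they were tested.

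Among the other collagens, Col9a1 gave 2.04 in Ovol2KO and 2.68 in TKO, and Col5a1 (-1.33) and Col24a1 (-1.22) were lower in Ovol3KO, also called in each alternative in which they were tested. Col13a1 gave 1.45 in Ovol2KO and 1.83 in TKO (adjusted p = 0.246 and 0.0548 on reads, 0.424 and 0.256 with a pseudocount of 0.1). In Ovol3KO Col13a1 gave -1.22, and -0.86 without the first EpiLC library of WT. Col23a1 gave 1.31 and 1.21 in Ovol2KO and TKO (adjusted p = 0.731 and 0.563 on reads, 0.346 and 0.216 with a pseudocount of 0.1). In TKO Col25a1 (1.49), Col6a1 (1.28) and Col24a1 (1.06) were not called on reads (adjusted p = 0.0632, 0.214 and 0.242). With a pseudocount of 0.1 Col6a1 (0.253) and Col24a1 (0.0838) were not called either. Col2a1 in TKO (1.07) was 0.78 without the first PGCLC library of WT. In Ovol3KO Col27a1 (-1.11) was -0.92 under quantile scaling, and Col9a2 (1.34) had an adjusted p of 0.138 with a pseudocount of 0.1. In Ovol2a/2b-Tg Col3a1 (1.79) had another sign on reads (-0.02). With a pseudocount of 0.1 the calls of Col3a1 (adjusted p = 0.243) and of Col9a2 (1.25, adjusted p = 0.0489, then 0.153) were lost in that line.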

How the results depend on the processing

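Of 244 calls of single genes, 22 ended with a pseudocount of 0.1, 1 with no filter, 23 with quantile scaling, 22 with limma-voom on the recovered reads (which turned 3 more) and 59 when some 1 library was left out. With a filter at 5 TPM 0 of 206 ended, and in a fit of all libraries 0 of 175. The 3 that turned were Col4a6 in Ovol3KO (0.07) and Ovol2a/2b-Tg (-0.07) and Col3a1 in Ovol2a/2b-Tg (-0.02), all PGCLC minus EpiLC and scarce in EpiLC. The cause was not tested. Low reads limit the scarce genes.

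Deviations of same-numbered libraries were at most weakly correlated (r from -0.21 to 0.20 in ESC, -0.06 to 0.06 in EpiLC and -0.08 to 0.18 in PGCLC). No clear pairing by number was seen, which cannot exclude one between some groups. With the number as a replicate block 1 of 242 calls ended, the count for Ovol2a/2b-Tg, PGCLC minus EpiLC, became 7, and TKO PGCLC kept 18. The Ovol2b-Tg EpiLC pair differed by little more than read sampling gives (1.05 chi-square units for each degree of freedom), and averaging it kept both calls.

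Counts of called genes moved by over 1.5 times as follows. With a pseudocount of 0.1 they were 2 (Ovol3KO), 5 (TKO), 5 (Ovol2a/2b-Tg) and 11 (Cdh1-Tg) in ESC; 2 (Ovol2KO), 4 (Ovol3KO), 7 (TKO), 19 (Cdh1-Tg), 11 (Ovol2a/2b-Tg) and 7 (Ovol2b-Tg) in EpiLC; 17 (Ovol2KO), 22 (Ovol3KO), 1 (TKO against Ovol2KO) and 2 (Cdh1-Tg against TKO) in PGCLC. PGCLC minus EpiLC gave 4 (Ovol2KO), 5 (TKO) and 2 (Ovol2a/2b-Tg). With limma-voom they were 10 (Ovol2KO), 3 (Ovol3KO), 8 (TKO), 8 (Ovol2a-Tg) and 5 (Ovol2a/2b-Tg) in ESC; 5 (Ovol2KO), 4 (Ovol3KO), 11 (TKO), 22 (Cdh1-Tg), 17 (Ovol2a/2b-Tg), 5 (Ovol2b-Tg) and 12 (Ovol2a-Tg) in EpiLC. In PGCLC they were 18 (Ovol2KO, 14 higher and 4 lower), 20 (Ovol3KO, 4 and 16), 15 (Ovol2a-Tg), 28 (Ovol2a/2b-Tg, 25 and 3), 6 (TKO against Ovol2KO) and 2 (Cdh1-Tg against TKO), and PGCLC minus EpiLC gave 4 (TKO) and 4 (Ovol2a/2b-Tg). The filter at 5 TPM gave 1 for TKO against Ovol2KO, and quantile scaling 1 for Ovol3KO EpiLC.

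Leaving out 1 library gave 10 to 12 calls for WT EpiLC against ESC and 15 to 17 for PGCLC against EpiLC. In ESC it gave 1 to 2 (Ovol3KO) and in EpiLC 0 to 1 (Ovol2KO), 1 to 5 (Ovol3KO), 2 to 5 (TKO), 10 to 14 (Cdh1-Tg), 3 to 6 (Ovol2a/2b-Tg) and 1 to 3 (Ovol2b-Tg). In PGCLC it gave 12 to 13 (Ovol2KO), 11 to 14 (Ovol3KO), 15 to 20 (TKO), 6 to 11 (Ovol2a-Tg), 18 to 21 (Ovol2a/2b-Tg), 0 to 1 (TKO against Ovol2KO), 3 to 8 (Ovol2a-Tg against TKO) and 0 to 2 (Cdh1-Tg against TKO).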
